A study of Rattus norvegicus with 8 samples.

Results

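The genes described here take up, store, release and sense iron. Of 10 such genes, 9 were represented among the 22523 probes (21558 genes) of the array, each by 1 probe whose gene symbol matched: the transferrin receptor Tfrc, its ligand transferrin (Tf), the ferrous iron transporter Slc11a2, the ferritin heavy chain Fth1, the iron exporter ferroportin (Slc40a1), heme oxygenase Hmox1, the iron regulatory proteins Aco1 and Ireb2, and Hfe, a membrane protein that binds the transferrin receptor. No probe was found for ceruloplasmin (Cp). The arrays held total RNA of incisor enamel organs from 4 male Wistar rats (Wistar Hannover in the study's methods), aged 4 weeks. Each rat gave 1 secretory-stage sample, from the part of the tooth where ameloblasts lay down the enamel matrix, and 1 maturation-stage sample, from the part where the matrix is removed and the mineral hardens. The study's methods name no transgene and no treatment of these animals. The dissected tissue was a whole multicellular layer, not sorted ameloblasts. In such bulk tissue fewer cells of a type and less RNA per cell cannot be told apart.

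The enamel of the rat incisor becomes pigmented with iron during maturation, when ameloblasts hold much ferritin. Iron bound to transferrin enters cells through the transferrin receptor, is released in the acid endosome and leaves it through Slc11a2. It is then stored in ferritin, a shell of heavy and light chains, or exported by ferroportin. The iron regulatory proteins bind hairpins in the messages of these genes and, when iron is scarce, protect the message of the receptor and block the translation of ferritin. The arrays measured messages only.

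The source label of 3 maturation-stage samples names the secretory stage, against their titles and tissue labels, which were followed here. All 8 arrays correlated best with the other arrays of their own stage, with r of at least 0.9938 within a stage and at most 0.973 between stages. The deposited signals summed to 13355073 to 16122665 on the maturation-stage arrays and 11881691 to 12046793 on the secretory-stage arrays, a ratio of the means of 1.24. Between 11164 and 11450 probes per array were detected in maturation and between 10667 and 10941 in secretion. After background correction, quantile normalization and log2 transformation, 1035 probes were called higher and 710 lower in maturation (limma, adjusted p below 0.05 and fold of at least 1.8). These are 4.6% and 3.15% of all probes. Scaling the arrays to a common median, a step that leaves the median of the detected probes 0.18 higher in maturation on the log2 scale, gave 1610 higher and 465 lower.

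Of the 9 iron genes, Tfrc, Hmox1 and Slc11a2 rose past both thresholds in maturation, against the 4.6% of all probes called higher, and none fell, against the 3.15% called lower (limma; 1 of the 9 was lower at an unadjusted p below 0.05, as were 18.3% of all probes, and none was called lower by the test named in the methods). With the adjusted p alone, 6 were higher, where 12.8% of all probes were, and Hfe was lower, where 14% were. The 4 maturation values lay entirely above the 4 secretory values for 6 genes, against 13.1% of all probes, and entirely below them for Ireb2 and Hfe, against 14.6%. All 9 probes were detected on all 8 arrays. Among the 9156 probes of which this holds, 8.73% were called higher. Within rats, 6 genes were higher in maturation in 4 of 4 rats, 2 were lower in 4 of 4, and Aco1 was of mixed sign. The 2 that were lower, Ireb2 and Hfe, were higher with median scaling (0.22 and 0.07) and without normalization between arrays (0.42 and 0.27), so that their direction turned with the scaling. The median log2 fold change of the 9 genes was 0.52, and that of all probes was -0.01.

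**Figure D1:**
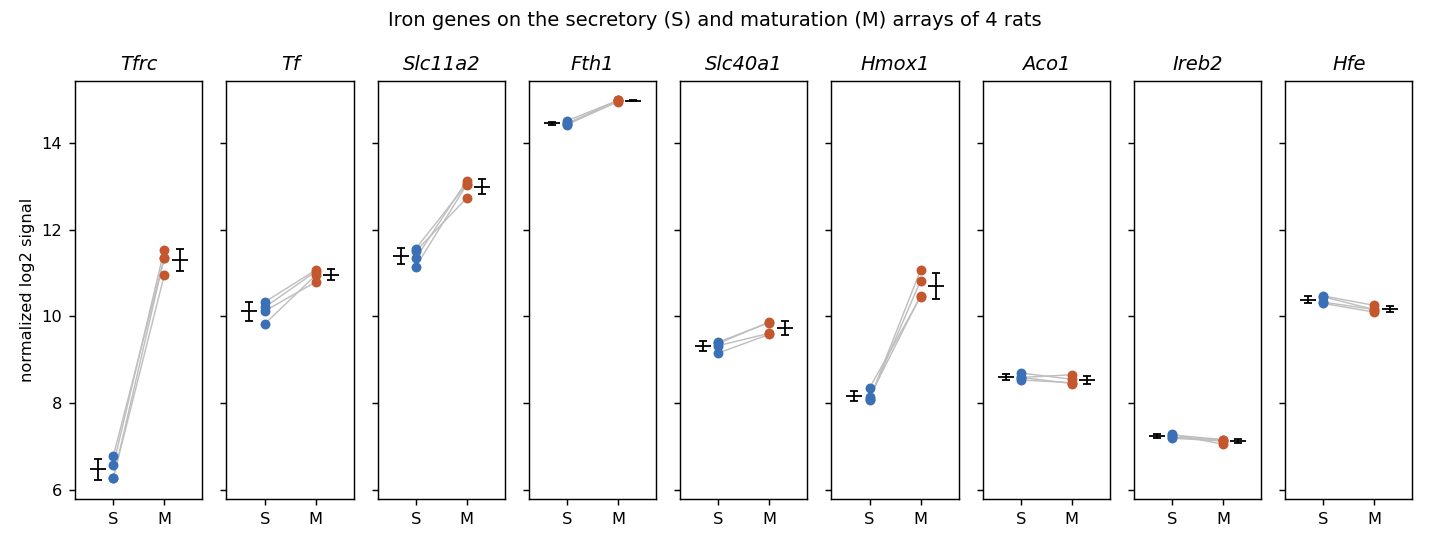
Normalized log2 signal (vertical axis) of the 9 iron genes on the 4 secretory (S, blue) and 4 maturation (M, red) arrays, with a grey line for each rat and the mean and SD of each stage beside the points. Tfrc, Slc11a2 and Hmox1 stand well apart between the stages, and Aco1 is the gene whose stages overlap.

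The transferrin receptor showed the largest change of the group. On the log2 scale its normalized signal was 6.28, 6.57, 6.27 and 6.78 on secretory arrays 1 to 4 and 10.95, 11.54, 11.35 and 11.34 on maturation arrays 1 to 4. The stages were far apart, and the lowest maturation array was that of rat 1. The means were 6.48 ± 0.245 (SD, n = 4) and 11.30 ± 0.247 (SD, n = 4), a log2 fold change of 4.82 with a standard error of 0.148, or 28.3-fold (limma, adjusted p = 4.47e-08). It ranked 14 among the rises of all 22523 probes. As deposited, without background correction or normalization, the mean bead signals were 150.0, 169.7, 154.4 and 174.7 in secretion and 2619, 3502, 2756 and 3131 in maturation, an 18.5-fold ratio of the means. The secretory signals stood close above the background of the array, so the size of the rise depends on how background is removed, and without that step the log2 fold change was 3.85. The bead signals of Tfrc on 1 array had a standard error of 3.04% to 4.35% of the mean, over 31 to 50 beads.

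The region just before the annotated start of Tfrc is shown because the gene had the largest rise of the group and its promoter alone among those at hand held any of the motifs searched. The 30 bases below begin 35 bases before the start on the minus strand, at chr11:81690324-81690353 of the GRCr8 assembly (RefSeq), outside the transcribed part of the gene. Capitals mark, in order, ACGTG, the core bound by hypoxia-inducible factors, and TGACGT, the core of the cyclic AMP response element.
Tfrc: gtgtACGTGcggcaggaagTGACGTaagcc
Promoter windows of equal length were at hand for 6 of the 9 genes (Tfrc, Slc11a2, Slc40a1, Aco1, Ireb2 and Tf, 7 promoters in all). On both strands, TGACGT occurred in 7.94% of 33469 rat promoters and in that of Tfrc only among the 7, and ACGTG in 19.3% and likewise in that of Tfrc only. The E-box CACGTG (6.42% of all promoters), which contains ACGTG, and the antioxidant element TGACNNNGC (12.1%) occurred in none of the 7. A match describes the letters of the window and no binding was measured.

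Among the 5 named genes whose profile over the 8 arrays lay closest to that of Tfrc, of the 9156 probes detected on all arrays, were Slc24a4, Gpha2, Serpinb1a and Ctrc. Slc24a4, a sodium and calcium exchanger of maturation ameloblasts, was the closest, at a root mean square distance of 0.16 on the log2 scale after centring, and it rose by 5.07. The distances of Gpha2, Serpinb1a and Ctrc were 0.30, 0.32 and 0.33. This likeness is a description over 4 arrays of each stage.

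Transferrin, the ligand of the receptor, was higher in maturation but its fold fell just short of the threshold. Its normalized log2 signal was 9.82, 10.33, 10.20 and 10.12 in secretion and 10.94, 11.06, 11.03 and 10.79 in maturation, with no overlap. The log2 fold change of 0.84 (standard error 0.110) corresponded to 1.79-fold against the threshold of 1.8 (limma, adjusted p = 3.20e-04). It passed the threshold when maturation array 4 (0.90), secretory array 2 (0.90) or secretory array 3 (0.86) was left out, with cyclic loess (0.90), and with median scaling (1.12). The 6 hepatocyte genes measured, among them Fgb, were undetected on all 8 arrays. Of 7 Schwann cell and glia markers 4 were higher with the adjusted p alone, and of 11 macrophage and leukocyte markers 9 were, where 12.8% of all probes were. The part of these cells in the difference in Tf was not tested.

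Slc11a2, which carries ferrous iron out of the endosome and across the cell membrane, rose past both thresholds. Its normalized log2 signal was 11.50, 11.56, 11.34 and 11.14 in secretion and 12.73, 13.05, 13.13 and 13.04 in maturation. The lowest maturation value, again from rat 1, lay above all secretory values. The log2 fold change was 1.60 (standard error 0.114), or 3.03-fold (limma, adjusted p = 5.81e-06). The rats differed in the size of the rise, from 1.23 in rat 1 to 1.89 in rat 4. The file has 1 probe for this gene, whose transcripts with and without an iron-responsive hairpin were therefore not separated.

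The ferritin heavy chain Fth1 was bright in both stages. Its deposited signal was 21503, 21676, 23041 and 22727 on the secretory arrays and 33855, 32076, 30310 and 31362 on the maturation arrays, a ratio of the means of 1.43, where the summed signal of all probes had a ratio of 1.24. It was the brightest probe on maturation arrays 1, 3 and 4 and the second on array 2, and ranked between 27 and 34 on the secretory arrays. Quantile normalization gives the brightest probe of every array the same value, so that the maturation values after it were 14.98, 14.94, 14.98 and 14.98. Against 14.42, 14.42, 14.51 and 14.44 in secretion, the log2 fold change was 0.52 (standard error 0.050, limma adjusted p = 4.34e-05), under the fold threshold. Cyclic loess gave 0.37 and median scaling 0.32. Set against the shift of the median detected probe, Fth1 was 0.14 higher on the log2 scale with median scaling and without normalization between arrays.

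The light chain, Ftl1, rose past both thresholds. Its normalized log2 signal was 13.17, 13.42, 13.40 and 13.29 in secretion and 14.70, 14.75, 14.73 and 14.76 in maturation. The log2 fold change was 1.42 (standard error 0.067), or 2.67-fold (limma, adjusted p = 4.97e-07). The highest signal of an array lay between 30310 and 33855 on all 8 arrays, and on the maturation arrays both ferritin probes stood at or near it, so a ceiling that holds down either rise was not tested and the rises of the 2 chains are not compared. Ferritin genes have processed copies in rodent genomes, and which copies each probe binds is not known here.

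**Figure D2:**
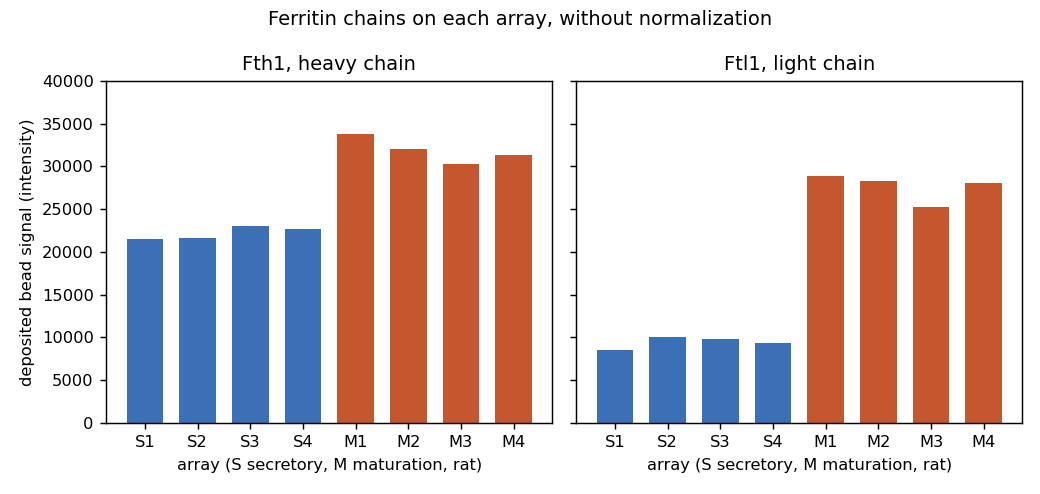
Deposited bead signal (vertical axis, linear, from 0) of the probes of Fth1 (left) and Ftl1 (right) on each of the 8 arrays, without background correction or normalization; S and blue are secretory, M and red maturation, and the number is that of the rat. For both chains every maturation array stood above every secretory array, and the maturation signals of Fth1 include the highest of 3 arrays.

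Hmox1, the inducible enzyme that breaks down heme and frees its iron, rose past both thresholds. Its normalized log2 signal was 8.35, 8.08, 8.09 and 8.14 in secretion and 10.44, 11.06, 10.82 and 10.48 in maturation. The maturation arrays spread more (SD 0.295) than the secretory ones (SD 0.124), with rats 2 and 3 above rats 1 and 4. The log2 fold change was 2.53 (standard error 0.137), or 5.79-fold (limma, adjusted p = 1.01e-06), and 2.21 without background correction.

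Ferroportin (Slc40a1), which releases iron from cells, was higher by a small amount. Its normalized log2 signal was 9.15, 9.32, 9.37 and 9.41 in secretion and 9.58, 9.61, 9.87 and 9.85 in maturation. The stages did not overlap, and maturation arrays 1 and 2 lay closest to the secretory arrays. The log2 fold change of 0.41 (standard error 0.090, limma adjusted p = 0.00669) was 1.33-fold and under the fold threshold. Without normalization between arrays it was 0.96 and past that threshold, of which 0.38 was the shift of the median detected probe.

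The 2 iron regulatory proteins did not pass the test after quantile normalization. Aco1, a cytosolic aconitase that binds the hairpins when it has lost its iron-sulfur cluster, had normalized log2 signals of 8.53, 8.69, 8.59 and 8.59 in secretion and 8.47, 8.55, 8.65 and 8.45 in maturation. The stages overlapped, with a difference of -0.07 (standard error 0.066, limma adjusted p = 0.545; two-sided exact permutation test, p = 0.257, or 0.375 with the labels exchanged within rats, where 4 rats allow no p below 0.125). Ireb2, the regulator that is degraded when iron is plentiful, had 7.21, 7.26, 7.19 and 7.28 in secretion and 7.15, 7.16, 7.13 and 7.05 in maturation. Its stages did not overlap, by a narrow margin, and the difference was -0.12 (standard error 0.054, limma adjusted p = 0.165). The two-sided exact permutation p was 0.0286, which is the lower limit for groups of this size. With the labels exchanged within rats it was 0.125, again the lower limit. Hfe had 10.30, 10.45, 10.47 and 10.33 in secretion and 10.10, 10.15, 10.25 and 10.16 in maturation, a difference of -0.22 (standard error 0.064, limma adjusted p = 0.0294), or 1.17-fold and not past the fold threshold. The limma adjusted p of Hfe was 0.0664 to 0.0834 when maturation array 1, 2 or 4 or secretory array 2 or 3 was left out. It was 0.107 with cyclic loess and 0.105 with normexp without negative controls. The deposited signals of Aco1, Ireb2 and Hfe were 1.33, 1.23 and 1.20 times higher in maturation, close to the ratio of 1.24 for all signals summed. The direction of these 3 therefore turned with the scaling between arrays, and their values with median scaling were 0.29, 0.22 and 0.07. With that scaling Aco1 (limma adjusted p = 0.00744) and Ireb2 (limma adjusted p = 0.0335) passed the adjusted p as higher, under the fold threshold. The annotation of the array places Hfe on chromosome X, where the GRCr8 gene table has the same gene ID on chromosome 17.

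**Figure D3:**
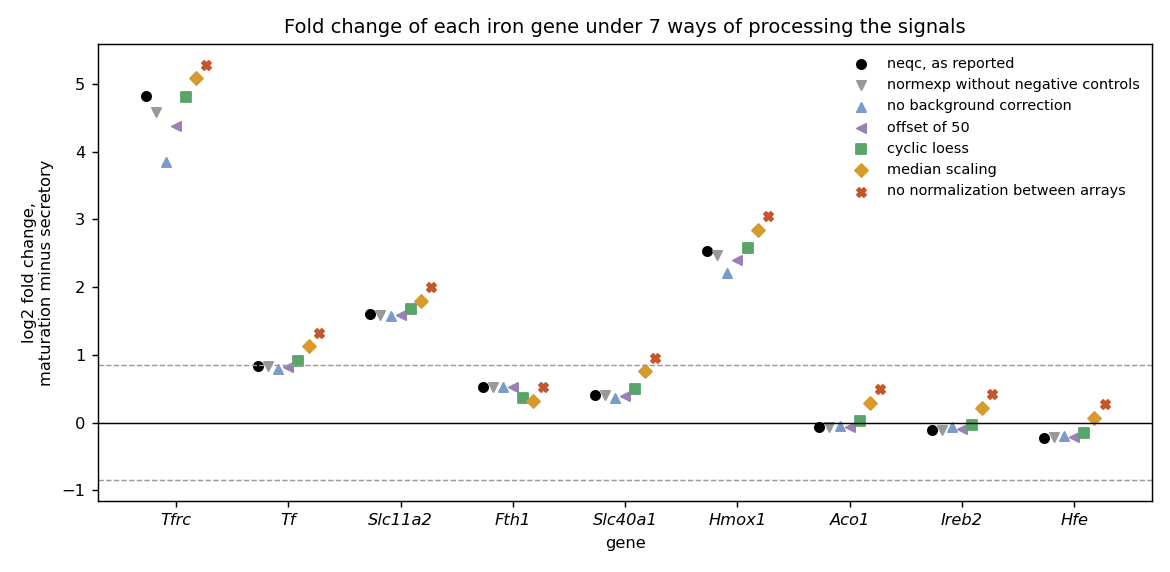
Log2 fold change, maturation minus secretory (vertical axis), of the 9 iron genes (horizontal axis) under 7 ways of processing the signals, with dashed lines at the fold threshold of 1.8 in each direction. Tfrc, Slc11a2 and Hmox1 stay above the upper line in each, Tf lies just below the line in 4 of the 7 and above it with cyclic loess (0.90), with median scaling (1.12) and without normalization between arrays (1.32), and Aco1, Ireb2 and Hfe lie on both sides of 0.

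Beyond these, 65 of 74 other listed genes of iron and heme handling had a probe, and a gene with several probes was taken by its brightest. Of the 65, 10 were called higher in maturation, 2 lower and 53 not called, with a median log2 fold change of 0.07. The shares for all probes were again 4.6% and 3.15%. The 10 genes of higher signal were spread over uptake (Lcn2 and Mcoln1), storage (Ftl1), heme breakdown and capture (Blvrb and Hp) and mitochondrial iron and iron-sulfur clusters (5 genes, among them Abcb10, Ciapin1, Fdx1 and Fdxr). The 2 of lower signal were Slc22a17 and Uros. All 12 were called in each of the 8 fits that left out 1 array.

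**Figure D4:**
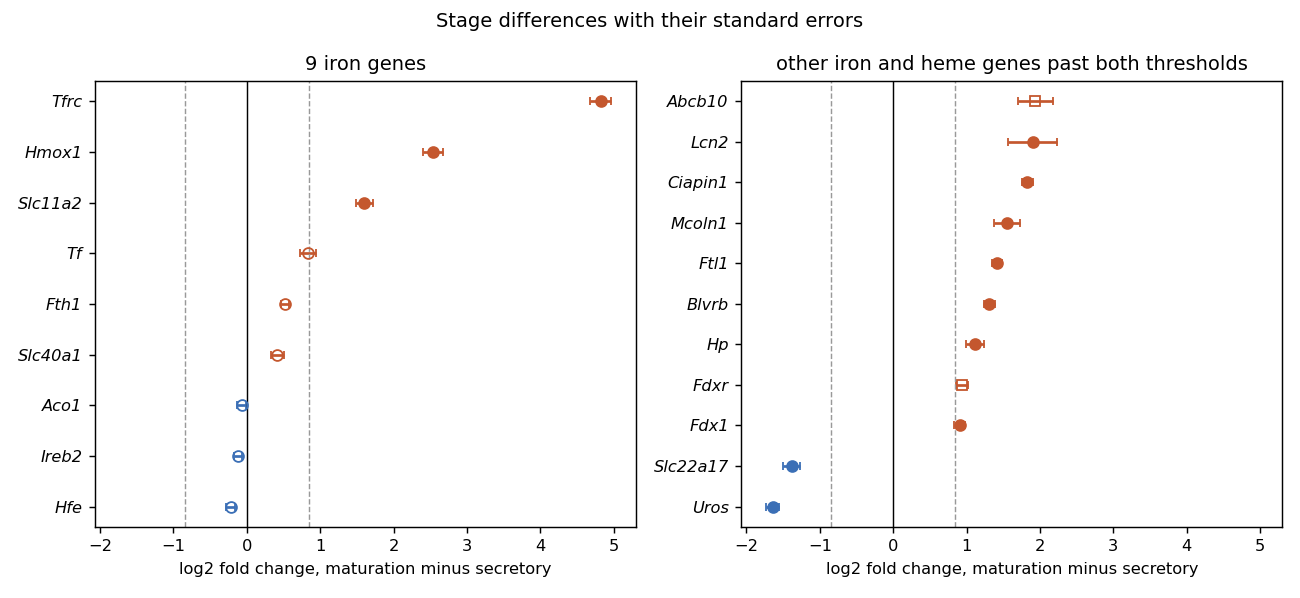
Log2 fold change, maturation minus secretory (horizontal axis), with its standard error for the 9 iron genes (left) and 11 of the 12 other iron and heme genes past both thresholds (right). Filled circles passed adjusted p and fold, open circles did not, open squares were undetected in secretion so that their fold is an estimate against background, and dashed lines mark the fold threshold of 1.8; Tfrc has the largest value, 4.82.

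Among the 14 other uptake genes measured, Lcn2, a secreted protein that binds iron-carrying siderophores, had deposited signals of 147, 192, 165 and 132 in secretion and 773, 374, 481 and 321 in maturation. It varied widely among the rats in both stages, without overlap, and rose by 1.90 on the normalized log2 scale (standard error 0.333, limma adjusted p = 0.00188). Slc22a17, a receptor for Lcn2, fell by 1.38 on the log2 scale (standard error 0.116, limma adjusted p = 1.74e-05), from 10.23, 10.09, 10.12 and 10.01 to 9.08, 8.51, 8.62 and 8.72. Mcoln1, a cation channel of late endosomes and lysosomes that passes iron, rose by 1.55 (standard error 0.176, limma adjusted p = 1.25e-04), from 6.14, 6.36, 6.14 and 6.16 to 7.15, 8.04, 7.88 and 7.91, and rat 1 had the lowest maturation value. The Steap genes, which encode ferric reductases and their relatives, were not called, with log2 fold changes of 0.46 for Steap3, 0.69 for Steap2 and -0.69 for Steap1, and Steap4 was undetected on all arrays. The second transferrin receptor, Tfr2, was near background, with a difference of -0.27. Its deposited signals were 125, 121, 124 and 125 in secretion and 130, 129, 125 and 138 in maturation, so that its direction rests on the processing.

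Among the 9 genes of export and the hepcidin axis none was called (limma; 4.6% and 3.15% of all probes were called higher and lower). With the adjusted p alone 2 were higher and 2 lower, where 12.8% and 14% of all probes were, the same counts held at an unadjusted p below 0.05, where 15.9% and 18.3% were, and the test named in the methods called none. Heph, the ferroxidase that works beside ferroportin, differed by 0.03 (standard error 0.070), and Hamp, which encodes the hormone hepcidin, was undetected on all 8 arrays. Fbxl5, the ubiquitin ligase adaptor that marks Ireb2 for degradation, differed by -0.25 (standard error 0.070, limma adjusted p = 0.0266), under the fold threshold. Its deposited signals were 3698, 4167, 4159 and 3811 in secretion and 4466, 4260, 4124 and 4660 in maturation, with a higher mean in maturation, so that its direction rests on the scaling between arrays. Of the 6 other storage genes and iron chaperones, Ftl1 was the one called, and Pcbp1, which delivers iron to ferritin, differed by -0.02 (standard error 0.069).

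Of 10 genes of heme uptake, export and breakdown, Blvrb and Hp were called higher, where 4.6% of all probes were. Blvrb, a biliverdin reductase, rose by 1.31 (standard error 0.074, limma adjusted p = 1.41e-06), from 7.81, 7.64, 7.55 and 7.78 to 9.05, 9.07, 8.91 and 8.99. Its relative Blvra differed by -0.11 and the constitutive heme oxygenase Hmox2 by -0.03, neither passing the test. Hp, the haptoglobin that binds free hemoglobin, rose by 1.11 (standard error 0.125, limma adjusted p = 1.16e-04) from a level near background, and its rise was 0.54 without background correction, under the fold threshold. Of 8 genes of heme synthesis 1 was called lower, where 3.15% of all probes were. Uros, which closes the porphyrin ring, fell by 1.64 on the log2 scale (standard error 0.089, limma adjusted p = 1.00e-06), from 7.34, 7.34, 7.42 and 7.67 to 5.92, 5.82, 5.78 and 5.67. The other 7 were not called. Among them Cpox (0.67), Alad (0.53) and Urod (0.29) were higher and Fech (-0.69) was lower with the adjusted p alone. By that measure 12.8% of all probes were higher and 14% lower.

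**Figure D5:**
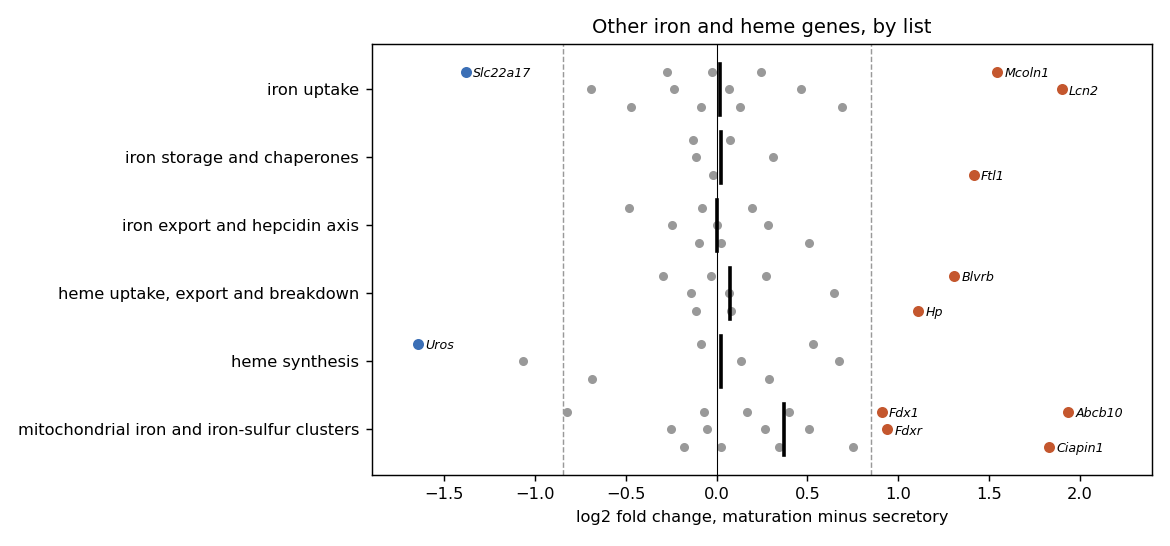
Log2 fold change, maturation minus secretory (horizontal axis), of other iron and heme genes in 6 lists (vertical axis); coloured, named points passed adjusted p and fold, grey points did not, black bars are the medians of all measured genes of a list and dashed lines mark the fold threshold of 1.8. The medians of 5 lists lie between 0.00 and 0.07, and that of mitochondrial iron and iron-sulfur clusters is 0.37.

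The list of mitochondrial iron and iron-sulfur clusters had a median of 0.37 over 18 genes, with 5 called higher (4.6% of all probes were) and none lower by limma and by the test named in the methods. With the adjusted p alone 10 were higher and 1 lower, where 12.8% and 14% of all probes were, and at an unadjusted p below 0.05 there were 11 and 3, where 15.9% and 18.3% were. Ciapin1, a cytosolic iron-sulfur protein that feeds electrons into cluster assembly, rose by 1.83 (standard error 0.071, limma adjusted p = 1.51e-07), from 12.04, 12.06, 12.12 and 12.05 to 13.71, 13.98, 13.97 and 13.93. The ferredoxin Fdx1 rose by 0.91 and its reductase Fdxr by 0.94. The scaffold protein Iscu (0.35) and the desulfurase Nfs1 (0.75) were higher with the adjusted p alone. Fdxr and Abcb10, a mitochondrial transporter linked to heme synthesis, were undetected on all 4 secretory arrays, so that after background correction and normalization Abcb10 was at least 3.22-fold and Fdxr at least 1.60-fold higher. These bounds hold on that scale only, and without background correction the log2 fold changes were 0.79 for Abcb10 and 0.32 for Fdxr. At these bounds 11 of the 12 called genes passed the fold threshold. A second probe of Abcb10 was undetected on all arrays (-0.03), so the 2 probes of this gene disagree, and the dimmer of the 2 probes of Sfxn1 was called lower (-0.88) where the brighter one (-0.82) missed the fold threshold.

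Markers of other cells in the tissue also differed between the stages. Of 11 macrophage and leukocyte markers measured, 7 were called higher in maturation and none lower, where 4.6% and 3.15% of all probes were. Their summed deposited signal was 13770 to 16031 in maturation and 4496 to 5503 in secretion, with Aif1 the brightest (log2 fold change 0.85, not called). Of 5 osteoclast markers 3 were called higher, with summed signals of 16390 to 22377 against 5673 to 7893 and Ctsk the brightest, and of 7 Schwann cell and glia markers 2 were, with 5722 to 8451 against 2842 to 3682 and Pmp22 the brightest. Macrophages express Hmox1, Slc40a1, Ftl1 and Hp in other tissues, and the part of these cells in the differences above was not tested. Of 7 erythroid and blood markers none was called by limma or the test named in the methods. At an unadjusted p below 0.05, 1 of them was lower, where 18.3% of all probes were. Their summed signals overlapped, at 50046 to 56892 in maturation and 41638 to 59046 in secretion. Hba-a1 was the brightest, and the erythroid factor Klf1 was undetected on all arrays.

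The stages themselves differed by their ameloblast markers. For these and the following lists, 4.6% of all probes were called higher and 3.15% lower, and 15.9% were higher at an unadjusted p below 0.05. All 4 maturation ameloblast markers measured were called higher, with summed signals of 18548 to 24488 in maturation and 638 to 709 in secretion and Klk4 the brightest. Of the 4 secretory markers 2 were called lower, and their summed signals were 32320 to 57385 in maturation and 58408 to 62760 in secretion, with Amelx the brightest. In the other lists, 1 of 6 endothelial markers was higher (Vwf, 0.88 on the log2 scale). Emcn, the brightest of them, differed by -0.002, and their summed deposited signals were 7720 to 8509 against 4371 to 5466. Of 7 odontoblast and osteoblast markers 1 was higher (Ibsp, 1.95 on the log2 scale) and 1 lower (Dspp, undetected in maturation). Bglap2 was the brightest of these, with sums of 16684 to 21930 against 8164 to 22452. None of 7 skeletal muscle markers was called by limma or the test named in the methods. At an unadjusted p below 0.05, 2 of them were higher, with Acta1 the brightest and sums of 959 to 1823 against 813 to 1088.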

How the data were processed

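Total RNA of 8 enamel organ samples, a secretory-stage and a maturation-stage sample from each of 4 rats, was hybridized to the RatRef-12 v1 BeadChip of Illumina, 1 array a sample. The authors deposited, without background correction or normalization, the mean bead signal of each probe as an intensity, a detection p-value and the number of beads as a count, with the standard error of the bead signals as a further signal value. Neither a genome build nor the bead summary software is given in the sources used here. Depth does not apply to arrays, and the number of arrays limits the precision.

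Groups and rat numbers were taken from the sample titles. Background correction by negative controls (whose mean and variance were inferred from the detection p-values), quantile normalization and the log2 transformation used the neqc function of limma 3.58.1 in R 4.3.3, with its offset at 16. All 22523 probes were fitted with lmFit and eBayes, unpaired, with Benjamini-Hochberg adjustment, and called at an adjusted p below 0.05 and a fold of at least 1.8. Probes whose detection p was nowhere below 0.05 in a stage count as undetected in that stage, and their folds are bounds against the dimmest detected probe. Permutations were enumerated in scipy 1.17.1 under Python 3.11.15, and figures were drawn with matplotlib 3.10.9. The fit was tested on simulated data.

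The iron genes, the lists and the markers were chosen with earlier results of these data known. The rule for named genes takes all iron genes, every called gene of the iron and heme lists, the brightest gene of each marker list, and the 5 genes closest to Tfrc; a few genes it takes are not reported here. Genes that were named in addition (Steap1, Steap2, Steap3, Steap4, Tfr2, Heph, Hamp, Fbxl5, Pcbp1, Blvra, Hmox2, Cpox, Alad, Urod, Fech, Iscu, Nfs1, Sfxn1, Klf1, Alas2, Enam, Vwf, Ibsp, Dspp and Hbb) were picked after their values were seen.

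Each rat gave both stages, so the rat numbers pair the samples. After subtraction of the stage means, the 2 arrays of each rat correlated at 0.195, 0.129, 0.219 and 0.234 over the 11233 probes with detection on 4 or more arrays. The alternatives changed the background step (normexp without negative controls, none, or an offset of 50), the scaling between arrays (cyclic loess, median scaling or none), the test (the methods' Student test, the rat as a block), the fold threshold or the probes tested (a detection filter), or left out each array. The exchange of labels within rats was added after the data were seen.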

Additional observations from a re-analysis of the deposited data

Results flagged for a closer look

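In 40 sets of 4 arrays (the 9 iron genes and the 12 other called iron and heme genes in each stage, without the 2 undetected in secretion), 2 held a value far from the other 3 by Dixon's test at the 5% level, and 2 would be flagged by chance. On maturation array 2, Fth1 was at 14.94 on the normalized log2 scale, where the other 3 arrays shared the value of 14.98 that quantile normalization gives to the brightest probe. On secretory array 2, Mcoln1 was at 6.36, where the other 3 arrays lay between 6.14 and 6.16.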

How the results depend on the processing

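Tfrc, Slc11a2 and Hmox1 were called in all 20 settings run, and Tf in 8 of the 20. With the rat as a replicate block, 1750 probes, the same 3 iron genes and 12 of the other iron and heme genes were called, and no call among the iron genes changed. With each array left out in turn, 1705 to 1806 probes were called. Without background correction 927 of all probes were called, with a fold threshold of 1.5 they were 2997, and without a fold threshold 6051. Without a fold threshold 7 iron genes and 32 of the other genes passed, and with a fold of 1.5 the other genes were 19. Without normalization between arrays 2600 of all probes (2268 higher and 332 lower), 5 iron genes and 21 others were called, under a shift of 0.38 in the median detected probe. The small differences of 3 genes reversed. Aco1 was 0.023 with cyclic loess, 0.29 with median scaling and 0.49 without normalization between arrays. Ireb2 was 0.22 and 0.42 under the last 2 of these, and Hfe 0.074 and 0.273. Set against the shift of the median detected probe (0.18 and 0.38), both gave 0.12 for Aco1, 0.04 for Ireb2 and -0.10 for Hfe. Of the 12 other genes called, 9 were called without background correction. Hp (0.54), Abcb10 (0.79) and Fdxr (0.32) missed the fold there, as did Hp (0.79) and Fdxr (0.50) with an offset of 50 and Fdxr (0.76) with normexp without negative controls. These genes were dim, and signal over background limits their folds.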

Other observations

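Among the maturation arrays, that of rat 1 had the lowest normalized log2 signals of Tfrc (10.95 against 11.34 to 11.54), Slc11a2 (12.73 against 13.04 to 13.13), Hmox1 (10.44 against 10.48 to 11.06), Mcoln1 (7.15 against 7.88 to 8.04) and Ciapin1 (13.71 against 13.93 to 13.98). The same array had the highest signal of Enam, a matrix protein of the secretory stage, at 9.08, where arrays 2, 3 and 4 had 5.17, 5.53 and 8.22. These genes were picked after their values were seen, and with 4 arrays no relation was tested. Without this array the log2 fold change of Tfrc was 4.94 and that of Slc11a2 was 1.70.

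Among the secretory arrays, Alas2, the enzyme that starts heme synthesis in erythroid cells, varied more than any of the iron genes, at 6.16, 8.04, 7.10 and 6.44, with 5.42 to 6.11 in maturation (log2 fold change -1.07, standard error 0.363, limma adjusted p = 0.0578). The last enzyme of the pathway, Fech, was likewise highest on secretory arrays 2 and 3 (9.59 and 9.33, against 8.65 and 8.76), and the hemoglobin gene Hbb was at 13.8, 14.7, 14.6 and 14.3 on the 4 arrays. No relation between them was tested.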
